A study of Mus musculus with 6 samples.

Results

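Lysosomal genes were followed in mouse primary macrophages that had been pretreated with rmMETRNL or with vehicle and had then met the yeast Candida albicans. The genes are 50 named members of the lysosome, listed by symbol for their role in it, and all 50 have a row among the 54532 genes of the deposited table. They comprise 10 protease genes (cathepsins and legumain), 11 glycosidases, 5 sulfatases, 7 lipid hydrolases and lipid carriers, 2 other luminal proteins, 6 membrane proteins, 7 genes of the V-ATPase proton pump and 2 transcription factors. All 6 samples were wild-type primary macrophages. In 3 of them vehicle was given before the fungus, and in the other 3 rmMETRNL, named for METRNL (meteorin-like, a secreted protein), was given for 6 h, and every sample was taken after 6 h with the fungus. Both groups met Candida, so the comparison is between pretreatments and there is no sample without the fungus. The age and sex of the mice, the source of the macrophages and the dose are not given in the labels.

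Lysosomes are the acidic compartments in which macrophages digest what they engulf, fungi included. The V-ATPase pumps protons into them, and hydrolases that work at acid pH, among them cathepsins for proteins, glycosidases for sugar chains and lipases for lipids, break the cargo down. Many of their genes carry an E-box (CACGTG) near the start, within a longer motif named the CLEAR element, that is bound by the related transcription factors TFEB and TFE3, whose entry into the nucleus is held back by the kinase complex mTORC1 at the lysosomal surface.

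Promoter sequences of members are shown here because this E-box is the feature by which lysosomal genes are known to be controlled together. RefSeq promoter windows (GRCm38.p6, 250 bases before to 50 bases after the start) were found by symbol for 42 members. CACGTG, which reads the same on both strands, was in the window of 14 of the 42 (33.3%), against 8.09% of all 27025 genes with a window and 13.0% of the 6955 of those genes that were tested for expression. The longer TCACGTGA, which contains CACGTG and also reads the same on both strands, was in 6 of 42 (14.3%), against 1.12% of all genes and 2.60% of those tested. The CLEAR element in its 10-base form, which is TCACGTGA with G before it and C after it, was in 0 of 42, against 0.370% of all genes and 0.978% of those tested. The 4 sequences below run 5′ to 3′, stop where the gene begins in the deposited table, and have CACGTG in capitals. Gaa had the largest difference of all members, Gla is a glycosidase whose groups overlapped, Mcoln1 is a membrane channel gene with lower values, and Lamp1 had the most copies.
Gaa, chr11:119267713-119267886, plus strand: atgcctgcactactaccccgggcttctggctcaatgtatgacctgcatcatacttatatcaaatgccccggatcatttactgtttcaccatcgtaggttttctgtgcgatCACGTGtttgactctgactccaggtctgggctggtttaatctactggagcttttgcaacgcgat
Gla, chrX:134601126-134601255, minus strand: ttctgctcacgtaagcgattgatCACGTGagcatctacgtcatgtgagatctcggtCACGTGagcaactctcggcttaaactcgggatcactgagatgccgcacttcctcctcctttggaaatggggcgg
Mcoln1, chr8:3500269-3500456, plus strand: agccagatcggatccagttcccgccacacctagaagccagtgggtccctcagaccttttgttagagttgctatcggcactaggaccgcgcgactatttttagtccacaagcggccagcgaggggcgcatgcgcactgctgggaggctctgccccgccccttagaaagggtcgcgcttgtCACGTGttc
Lamp1, chr8:13158911-13159160, plus strand: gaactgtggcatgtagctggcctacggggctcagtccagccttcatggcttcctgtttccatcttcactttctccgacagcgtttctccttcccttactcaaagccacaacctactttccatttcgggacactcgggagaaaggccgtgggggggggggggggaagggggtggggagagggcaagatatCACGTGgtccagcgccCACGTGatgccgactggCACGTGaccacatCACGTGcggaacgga
The stretch before Lamp1 holds 4 copies, that before Gla 2, and those before Gaa and Mcoln1 hold 1 each. The 14 tested members with CACGTG in the window had a median log2 fold change (rmMETRNL against vehicle) of -0.02 with 8 of 14 negative, and the 27 tested members with a window and no match had -0.03 with 18 of 27 negative. For TCACGTGA, the 6 tested members with it had a median of 0.01 with 2 of 6 negative. The 35 without it had -0.04 with 24 of 35 negative, and neither split was tested. A match is a description of letters and does not show binding.

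The libraries held 13235001 to 18145733 recovered reads each. Values are FPKM, fragments per kilobase of gene on a scale common to the libraries, and at a length of 1 kb 10 reads equal 0.549 to 0.748 FPKM. Which columns hold rmMETRNL was read from letters in the column names (Wt and Wr), and the sign of each difference below depends on it. No label tells if the samples within a group are separate mice, separate cultures or repeats of 1 culture, so a p-value here covers only sample-to-sample spread, possibly technical. One library, rmMETRNL 3, stood apart in its relation to gene length, with a correlation across 9867 genes of 0.205 between its deviation from the group mean and log2 length, against -0.142 to 0.0998 in the other 5, a description in which the genes share each library and are not independent. Of 15 macrophage markers, 15 had a mean of at least 1 FPKM, led by Lyz2 and Cd14, and their sum was 9806 to 10544 FPKM with vehicle and 9584 to 10049.8 FPKM with rmMETRNL. Cd14 had 2712, 2589 and 2639 FPKM with vehicle and 2346, 2308 and 2241 FPKM with rmMETRNL, without overlap. Its log2 fold change was -0.20 (SE 0.04, adjusted p = 0.189 in limma and 0.0468 in voom). Lyz2 overlapped between groups, and others of the list lay wholly higher or wholly lower with rmMETRNL. The labels' protocol mentions retinas, and of 14 retina markers 0 reached a mean of 1 FPKM, Pax6, Rpe65 and Crx were at 0 in all libraries, and the sum over the list was 0.471 to 0.591 FPKM with vehicle and 0.666 to 0.934 FPKM with rmMETRNL. The 10 neutrophil markers summed to 121 to 127 FPKM with vehicle and 131 to 139 FPKM with rmMETRNL, with Elane at 0 and 4 of the 10 at a mean of at least 1 FPKM. Of its most abundant genes, S100a9 had 23.5, 24.8 and 24.9 FPKM with vehicle and 30.7, 37.1 and 36.6 FPKM with rmMETRNL, without overlap (log2 fold change 0.49, SE 0.08, adjusted p = 0.151 in limma), while S100a8 had 80.6, 81.4 and 88.9 and 85.5, 86.6 and 86.2 FPKM, with overlap. The 8 markers of resident peritoneal macrophages, led by Prg4 and Icam2, summed to 10.3 to 12.2 FPKM with vehicle and 9.92 to 10.3 FPKM with rmMETRNL. In 7 further lists, of mast cells, T and NK cells, B cells, dendritic cells, osteoclasts, fibroblasts and endothelium, the sums of the groups overlapped. The part of these markers in the results below was not tested.

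The lysosomal genes were strongly expressed, and the 50 together made up 4.23% of all FPKM. Psap, which encodes the precursor of the saposins that help lipid hydrolases reach their substrates, was the highest at 3074 FPKM over the 6 libraries. It was followed by the cysteine protease gene Ctss at 2342 and the aspartic protease gene Ctsd at 1829 FPKM, whose ranges over the libraries did not meet. The next 3, Cd68 (1403), Ctsb (1351) and Ctsz (1248 FPKM), lay close together, and the ranges of Cd68 and Ctsb overlapped. Among the V-ATPase genes the order ran from Atp6v1a (214 FPKM) to Atp6v1h (39.2 FPKM). Glycosidase genes spanned a wide range, from Hexa (273 FPKM) down to Manba (4.59 FPKM). The 3 lowest members were Tfeb (2.55), the sulfamidase gene Sgsh (1.38) and the sulfatase gene Arsb (0.797 FPKM), and Arsb, with 50 to 85 reads per library, was the 1 member below the level tested, a mean of 1 FPKM.

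**Figure D1:**
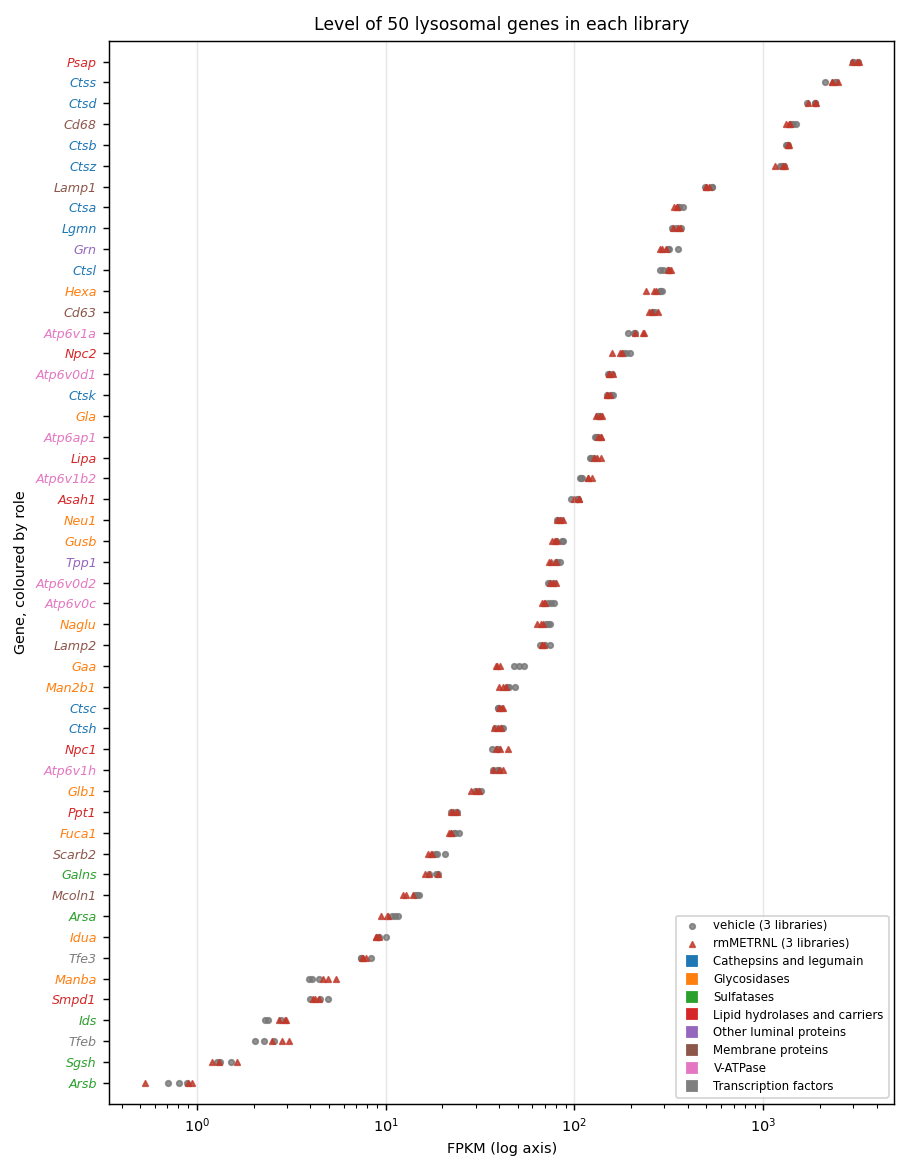
FPKM (log axis) of the 50 lysosomal genes in each of the 6 libraries, ordered by mean level, with gene names coloured by role, grey circles for vehicle and red triangles for rmMETRNL. Levels run from 0.797 FPKM (Arsb) to 3074 FPKM (Psap), and for most genes the 6 libraries lie close together.

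The comparison asked whether macrophages pretreated with rmMETRNL differ from those given vehicle in lysosomal genes once they have met Candida. Most members stood at nearly the same level in both groups. Among the members, glycosidase and membrane protein genes were mostly slightly lower with rmMETRNL, and V-ATPase genes mostly slightly higher. The lists of other lysosome genes, described below, were more evenly split. There, 9 of 16 glycosidase, 11 of 23 membrane protein and 7 of 14 V-ATPase genes had a positive log2 fold change. Limma on log2(FPKM + 1), adjusted over all genes tested, called 0 of 49 tested members at an adjusted p of 0.05, where it called 0.0% of all 9867 genes, and voom on the recovered reads called 1 member, Gaa, where it called 0.618% of all genes. At an unadjusted p under 0.05 there were 9 members lower and 3 higher with rmMETRNL (18.4% and 6.12% of 49), against 704 lower (7.13%) and 744 higher (7.54%) of all genes tested. In 14 members the 3 rmMETRNL values lay wholly below the 3 vehicle values and in 6 wholly above them (28.6% and 12.2%), against 10.6% and 10.9% of all genes. Rescaling to TPM (the same values made to sum to 1 fixed total in each library) moved these counts, to 3 lower and 4 higher at an unadjusted p under 0.05 (6.12% and 8.16%, against 5.36% and 8.47% of all genes on that scale) and to 9 wholly below and 5 wholly above (18.4% and 10.2%, against 8.35% and 12.3%). With quantile normalization there were 8 lower and 6 higher at an unadjusted p under 0.05 (16.3% and 12.2%, against 6.68% and 8.13% of all genes). The 9 members lower at an unadjusted p under 0.05 became 2 (4.08%) without vehicle library 1, where 6.19% of all genes were lower, and 4 (8.16%) without vehicle library 2, rmMETRNL library 2 or rmMETRNL library 3, where 5.52%, 5.70% and 4.70% of all genes were. The 6 wholly above became 10 (20.4%) without vehicle library 3, and over all genes that share went from 10.9% to 16.03%, since fewer libraries overlap less often. The median log2 fold change was -0.02 over the members and -0.01 over all genes, and the members' median was -0.04 without rmMETRNL library 2 and positive, at 0.0036, on the TPM scale, where that of all genes was 0.01. In bulk RNA, fewer cells of a type and less RNA per cell cannot be told apart.

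**Figure D2:**
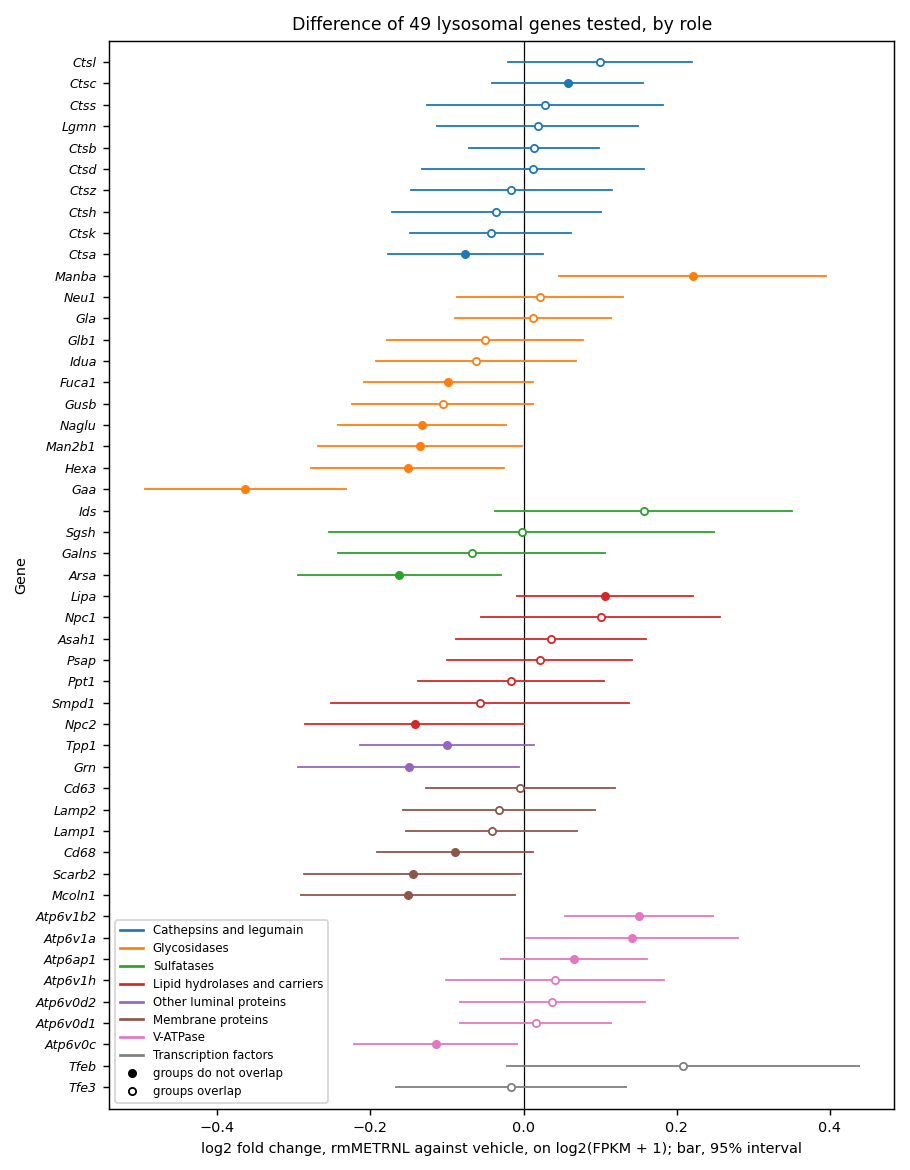
Log2 fold change of the 49 tested lysosomal genes (rmMETRNL against vehicle, on log2(FPKM + 1)), grouped and coloured by role, with 95% intervals from limma. Filled points mark the 20 genes whose groups do not overlap, 14 lower and 6 higher, and Gaa lies farthest from 0 at -0.36.

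Cathepsin and legumain genes, which encode the proteases of the lysosome, differed little. Of 10, 6 had a positive and 4 a negative log2 fold change, with a median of 0.01 and a range of -0.08 to 0.10. This median was -0.02 without vehicle library 1. At an unadjusted p under 0.05 in limma there were 0 of the 10, against 14.7% of all genes tested. Summed over the 10 genes, the level was 7838, 8015 and 8095 FPKM in vehicle libraries 1, 2 and 3 and 8059, 8332 and 7743 FPKM in rmMETRNL libraries 1, 2 and 3, and the groups overlapped.

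Ctsl, which encodes the cysteine protease cathepsin L, had 282, 315 and 294 FPKM with vehicle and 315, 325 and 314 FPKM with rmMETRNL, values given here and below in the order of libraries 1, 2 and 3, with vehicle first. Its rmMETRNL libraries 1 and 2 lay above all vehicle libraries and library 3 just below vehicle library 2, and the log2 fold change was 0.10 (SE 0.05, adjusted p = 0.414 in limma). An antisense gene, Gm47123, covers part of the 26.8% of Ctsl's exon bases that belong to other genes too. As no strand setting is given, whether reads of the strands were told apart is not known. Ctsc, which encodes the dipeptidyl peptidase that activates serine proteases of granules, had 39.5, 39.9 and 39.3 against 40.04, 41.6 and 42.1 FPKM, and all rmMETRNL values were above all vehicle values by a small margin (log2 fold change 0.06, SE 0.04). Ctsa, which encodes the carboxypeptidase that protects the glycosidases GLB1 and NEU1 from degradation, had 377, 357 and 358 against 351, 349 and 335 FPKM, with all rmMETRNL values below all vehicle values (log2 fold change -0.08, SE 0.04). Other genes, mainly Pltp on the other strand, cover 17.4% of its exon bases.

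The collagen-degrading cathepsin gene Ctsk had 160.4, 149.8 and 156 against 149, 155 and 148 FPKM, with overlapping groups. The abundant Ctsb, Ctsd, Ctss and Ctsz and the asparaginyl protease gene Lgmn had log2 fold changes between -0.02 and 0.03, all with overlapping groups. For Ctsb, the most precisely measured of these, the 95% interval of the log2 fold change was -0.07 to 0.10. For Ctss it was -0.13 to 0.18. Ctsd shares 34.4% of its exon bases with other genes, mainly Gm49369 on the same strand, so its level is uncertain. Ctsh, an aminopeptidase gene, had a log2 fold change of -0.04.

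Glycosidase genes held the largest difference among the members. Of 11, 8 had a negative log2 fold change. In 5 the values lay wholly below the vehicle values and in 1 wholly above (45.5% and 9.09%, against 10.6% and 10.9% of all genes). At an unadjusted p under 0.05, 4 were lower and 1 higher (36.4% and 9.09%, against 7.13% and 7.54% of all genes). The median over the 11 glycosidase genes was -0.10, with -0.08 on the TPM scale. Their summed level was 844, 823 and 811 FPKM with vehicle and 784, 785 and 740.1 FPKM with rmMETRNL, so that every rmMETRNL library was below every vehicle library. The difference of the sums was -6.84%. Hexa, the highest of these genes, had means of 287 FPKM with vehicle and 259 FPKM with rmMETRNL, against 826 and 770 FPKM for the sum.

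Gaa (ENSMUSG00000025579, chromosome 11, 119267887 to 119285454, GRCm38) encodes acid alpha-glucosidase, which degrades glycogen in the lysosome. It had 54.1, 50.7 and 47.96 FPKM with vehicle and 40.2, 38.7 and 39.1 FPKM with rmMETRNL. The 3 rmMETRNL values lay close together and well below the lowest vehicle value. The log2 fold change was -0.36 (SE 0.05, 95% interval -0.49 to -0.23), with an adjusted p of 0.151 in limma and 0.0136 in voom, and Gaa stood at place 18 of the 9867 genes by p in limma. It rests on 2772 to 4177 reads per library and shares no exon bases with another gene. With any 1 library left out, the log2 fold change lay between -0.41 and -0.32.

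Hexa (ENSMUSG00000025232, chromosome 9, 59539540 to 59565109), the alpha subunit of the beta-hexosaminidase that degrades GM2 ganglioside, had 293, 283 and 285 against 265, 269.8 and 241 FPKM. All 3 rmMETRNL values were below the vehicle values, library 3 the farthest (log2 fold change -0.15, SE 0.05, adjusted p = 0.292 in limma). It shares 12.8% of its exon bases, mainly with Tmem202 on the other strand. Naglu, which encodes an enzyme of heparan sulfate breakdown, had 74.5, 71.1 and 72.4 against 68.4, 63.5 and 66.9 FPKM and did not overlap (log2 fold change -0.13, SE 0.05). Man2b1, the lysosomal alpha-mannosidase gene, had 48.2, 45.3 and 43.7 against 43.2, 39.7 and 41.7 FPKM, with rmMETRNL library 1 only slightly below vehicle library 3 (log2 fold change -0.14, SE 0.06). The fucosidase gene Fuca1 also lay wholly lower, at 24.6, 23.2 and 23.03 against 22.2, 22.1 and 21.6 FPKM.

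Manba, the lysosomal beta-mannosidase gene, was the 1 glycosidase gene with wholly higher values, at 4.43, 3.95 and 4.10 FPKM with vehicle and 5.44, 4.66 and 4.94 FPKM with rmMETRNL. The alpha- and beta-mannosidase genes thus lay on opposite sides (log2 fold change of Manba 0.22, SE 0.07, adjusted p = 0.278 in limma). At 368 to 590 reads per library Manba is a low gene. The remaining 5, Gla, Glb1, Gusb, Idua and Neu1, overlapped between groups, with log2 fold changes of -0.11 (Gusb, beta-glucuronidase) to 0.02 (Neu1, a sialidase).

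**Figure D3:**
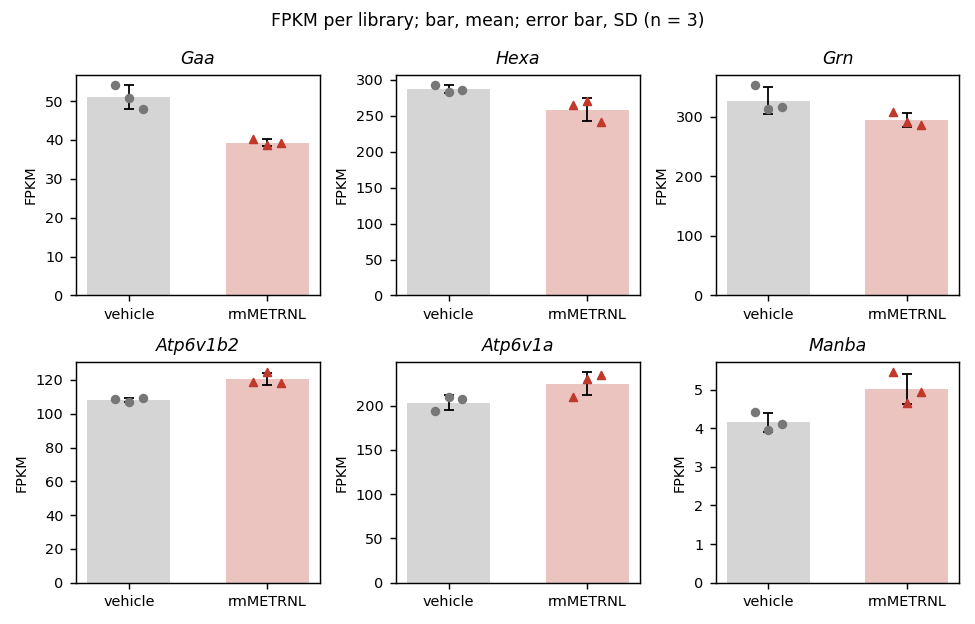
FPKM per library of 6 genes, Gaa, Hexa, Grn, Atp6v1b2, Atp6v1a and Manba, with grey circles for vehicle, red triangles for rmMETRNL, bars for the mean and error bars for the SD (n = 3). In all 6 genes the groups do not overlap, with Gaa, Hexa and Grn lower and the others higher in the rmMETRNL libraries.

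Sulfatase genes, whose products remove sulfate from glycosaminoglycans and sulfolipids, were expressed at low levels. Arsa, the arylsulfatase A gene, had 11.3, 11.7 and 10.9 FPKM with vehicle and 10.2, 10.3 and 9.44 FPKM with rmMETRNL, without overlap (log2 fold change -0.16, SE 0.06, adjusted p = 0.287 in limma), and shares 18.8% of its exon bases with other genes, mainly on the other strand. Ids, the iduronate sulfatase gene, went the other way at 2.29, 2.38 and 2.80 against 2.94, 2.74 and 2.97 FPKM, but its rmMETRNL library 2 lay below vehicle library 3. Galns had 18.98, 18.5 and 17.01 against 18.9, 16.9 and 16.1 FPKM and overlapped. Sgsh had 1.29, 1.53 and 1.33 against 1.31, 1.20 and 1.63 FPKM from 83 to 107 reads per library, and its interval of -0.25 to 0.25 on the log2 scale shows how little this depth can resolve. Arsb, not tested, had 0.809, 0.892 and 0.700 against 0.533, 0.897 and 0.949 FPKM. Of the 4 tested, 1 lay wholly lower (25%, against 10.6% of all genes) and 3 overlapped.

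Lipid hydrolase and lipid carrier genes went both ways. Of 7, 4 had a positive and 3 a negative log2 fold change, with a median of 0.02. This median was -0.0043 without rmMETRNL library 2 and 0.05 without vehicle library 2. An unadjusted p under 0.05 in limma was reached by 0 of the 7, against 14.7% of all genes tested. Lipa, the lysosomal acid lipase that frees cholesterol from its esters, had 122, 127 and 121 FPKM with vehicle and 128, 133 and 139 FPKM with rmMETRNL. All its rmMETRNL values were above the vehicle values, library 1 by very little (log2 fold change 0.11, SE 0.05, adjusted p = 0.369 in limma).

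Cholesterol leaves the lysosome through the products of Npc2 and Npc1, whose log2 fold changes had opposite signs. Npc2, the soluble carrier that hands cholesterol to the membrane protein NPC1, had 179.9, 196 and 188 FPKM with vehicle and 174, 179 and 158 FPKM with rmMETRNL, wholly lower (log2 fold change -0.14, SE 0.06, adjusted p = 0.342 in limma). Npc1 had 39.2, 38.97 and 36.6 against 40.3, 38.5 and 44.7 FPKM, with overlapping groups and its highest value in rmMETRNL library 3 (log2 fold change 0.10, 95% interval -0.06 to 0.26). The acid ceramidase gene Asah1 had 96.02, 104 and 104 against 99.2, 106 and 106 FPKM, and the values of the groups were interleaved. Psap, at 3052 ± 119 and 3097 ± 128 FPKM (mean ± SD, n = 3), the sphingomyelinase gene Smpd1 and the thioesterase gene Ppt1 also overlapped.

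Grn and Tpp1, the other luminal genes, were both wholly lower with rmMETRNL, as were 10.6% of all genes tested. Grn, which encodes progranulin, a secreted protein that is also taken to lysosomes and cut into granulins, had 353, 312 and 316 FPKM with vehicle and 307, 291 and 286 FPKM with rmMETRNL. Vehicle library 1 was well above the other 5, and the remaining vehicle libraries lay little above rmMETRNL library 1 (log2 fold change -0.15, SE 0.06, adjusted p = 0.328 in limma). Tpp1, a tripeptidyl peptidase gene, had 83.6, 81.2 and 79.7 against 75.3, 73.1 and 79.6 FPKM, with rmMETRNL library 3 just under vehicle library 3.

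Membrane protein genes all had negative log2 fold changes, 6 of 6 on the FPKM scale, with a median of -0.07 (-0.04 on the TPM scale). Of the 6, 3 were wholly lower and 2 lower at an unadjusted p under 0.05 (50% and 33.3%, against 10.6% and 7.13% of all genes). The summed level of the 6 genes was 2389, 2258 and 2350.2 FPKM with vehicle and 2240.3, 2224 and 2209 FPKM with rmMETRNL, the groups apart by a small margin. Cd68 made up most of this sum, with means of 1446 FPKM with vehicle and 1359 FPKM with rmMETRNL, against 2332 and 2224 FPKM for the sum. Mcoln1 (ENSMUSG00000004567, chromosome 8, 3500457 to 3515232) encodes the calcium channel TRPML1 of the lysosomal membrane and had 14.3, 14.6 and 14.96 against 14.02, 12.4 and 12.9 FPKM. Library 1 of the rmMETRNL group was close to the vehicle values and libraries 2 and 3 were lower (log2 fold change -0.15, SE 0.06, adjusted p = 0.320 in limma). Scarb2, which encodes the lysosomal membrane receptor LIMP-2, had 18.7, 20.6 and 18.3 against 17.4, 17.7 and 16.7 FPKM (log2 fold change -0.14, SE 0.06). Cd68, a macrophage marker of endosomes and lysosomes, had 1497, 1400.3 and 1442 against 1384, 1328 and 1365 FPKM, again without overlap (log2 fold change -0.09, SE 0.04). Genes of the main structural proteins had smaller differences. Lamp1 had 534, 494 and 534 against 499, 519 and 499 FPKM, and Lamp1, Lamp2 and the tetraspanin gene Cd63 overlapped between groups, with log2 fold changes of -0.04, -0.03 and -0.0040.

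V-ATPase genes among the members showed the opposite tendency. Of 7, 6 had a positive log2 fold change, and the median was 0.04, with 0.01 without vehicle library 1 and 0.07 without vehicle library 2. In 3 the values lay wholly above the vehicle values and in 1 wholly below (42.9% and 14.3%, against 10.9% and 10.6% of all genes). The 14 tested V-ATPase genes outside the members, described below, had 7 positive and 7 negative log2 fold changes (median -0.0055). The summed level of the 7 members was 774, 789 and 791 FPKM with vehicle and 809, 836 and 824 FPKM with rmMETRNL, a difference of 4.91%, with every rmMETRNL library above every vehicle library. Atp6v1a, the highest of them, had means of 203 FPKM with vehicle and 225 FPKM with rmMETRNL, against 785 and 823 FPKM for the sum. The pump has a cytosolic V1 part that splits ATP and a membrane V0 part through which protons pass, and the genes of the ATP-splitting core stood highest in this comparison.

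Atp6v1b2 (ENSMUSG00000006273, chromosome 8, 69088646 to 69113711), the B subunit of the V1 core, had 109, 107 and 109 FPKM with vehicle and 119, 124 and 118 FPKM with rmMETRNL. The vehicle values lay within a narrow band and each rmMETRNL value was clearly above it (log2 fold change 0.15, SE 0.04, 95% interval 0.05 to 0.25, adjusted p = 0.238 in limma). Atp6v1a (ENSMUSG00000052459, chromosome 16, 44085402 to 44139705), the catalytic A subunit that pairs with B, had 193, 209 and 207 against 209.7, 229.9 and 234 FPKM. Its groups did not overlap, although rmMETRNL library 1 nearly equalled vehicle library 2 (log2 fold change 0.14, SE 0.06, adjusted p = 0.332 in limma). The accessory subunit gene Atp6ap1 had 133, 131 and 128 against 134, 139 and 138 FPKM, wholly but barely higher.

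Atp6v0c, which encodes the proteolipid of the membrane ring that carries the protons, was the exception, with 77.6, 74.9 and 72.1 FPKM with vehicle and 70.1, 67.6 and 69.4 FPKM with rmMETRNL, wholly lower (log2 fold change -0.11, SE 0.04, adjusted p = 0.320 in limma). Its level is uncertain, since other genes, among them its pseudogenes, contain 12.9% of its 31-base words. Atp6v0d1, Atp6v0d2 and Atp6v1h overlapped, with log2 fold changes of 0.02, 0.04 and 0.04.

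**Figure D4:**
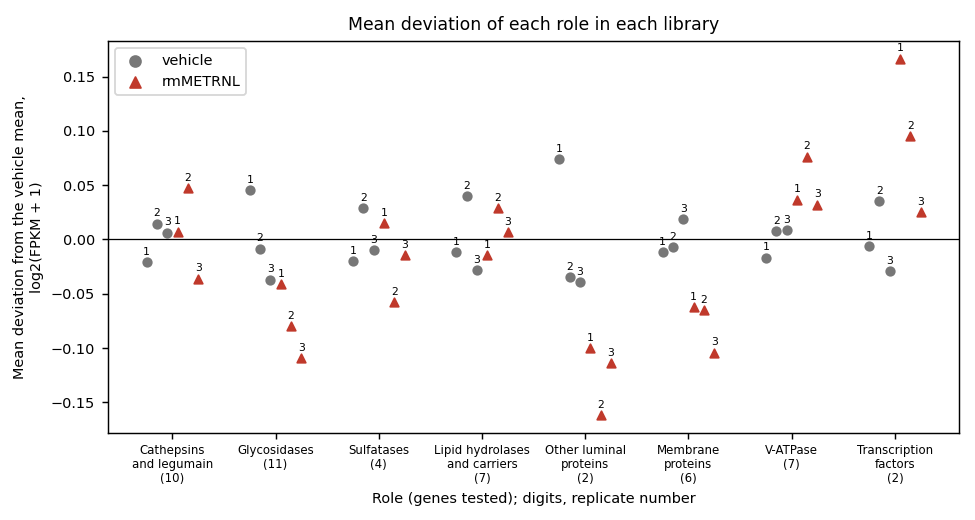
Mean over the tested genes of each role of the deviation from the vehicle mean on log2(FPKM + 1), for each library (grey circles, vehicle; red triangles, rmMETRNL; digits, replicate number). The rmMETRNL libraries lie below the vehicle libraries for membrane proteins and glycosidases, above them for the V-ATPase, and among them for cathepsins and lipid hydrolases.

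Set side by side, the role medians ran from -0.13 for the 2 other luminal genes to 0.10 for the 2 transcription factor genes. Over all genes tested the median was -0.01, with quartiles of -0.10 and 0.08. Per library, the mean deviation of the glycosidase genes from their vehicle mean was 0.05, -0.01 and -0.04 with vehicle and -0.04, -0.08 and -0.11 with rmMETRNL on the log2 scale, while that of the V-ATPase genes was -0.02, 0.01 and 0.01 with vehicle and 0.04, 0.08 and 0.03 with rmMETRNL. For cathepsins these means were -0.02, 0.01 and 0.01, and 0.01, 0.05 and -0.04, and for lipid hydrolases -0.01, 0.04 and -0.03, and -0.02, 0.03 and 0.01, so both roles overlapped between groups. Without rmMETRNL library 3 the medians were -0.08 for glycosidases, 0.06 for the V-ATPase, -0.06 for membrane proteins and 0.04 for cathepsins. Differences between roles were not tested, as genes are not replicates. Across the 49 members the log2 fold change had a correlation of 0.138 with log2 gene length and of -0.0600 with log2 mean FPKM, descriptions over genes of the same 6 libraries.

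The transcription factor genes were low. Tfeb, which encodes a master regulator of lysosomal genes, had 2.03, 2.57 and 2.28 FPKM with vehicle and 3.09, 2.82 and 2.50 FPKM with rmMETRNL, and its groups overlapped because rmMETRNL library 3 lay below vehicle library 2 (log2 fold change 0.21, SE 0.10, adjusted p = 0.377 in limma). The gene of the related factor TFE3 had 8.42, 7.45 and 7.43 against 7.86, 7.59 and 7.51 FPKM, a log2 fold change of -0.02 with an interval of -0.17 to 0.13. RNA level does not report on the location of these proteins, which is where they are known to be controlled.

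Other genes of the lysosome, 146 in 8 lists, had 117 tested members, of which limma called 0 at an adjusted p of 0.05 and voom 1, Rragc. Over all genes tested, limma called 0.0% and voom 0.618%, so 1 call in a list of this size is no trait of the list. At an unadjusted p under 0.05 limma had 8 higher and 16 lower (6.84% and 13.7%, against 7.54% and 7.13% of all genes), and 16 lay wholly above and 21 wholly below the vehicle values (13.7% and 17.9%, against 10.9% and 10.6%). Their median was -0.01, the same as that of all genes to 2 decimals. The list of mTORC1 nutrient sensing and MiT/TFE control (23 tested) had 12 positive and 11 negative log2 fold changes, with a median of 0.01, and -0.01 without vehicle library 2. In it 5 genes were wholly higher and 3 wholly lower (21.7% and 13.0%, against 10.9% and 10.6% of all genes). At an unadjusted p under 0.05 in limma, 3 were higher and 1 lower (13.0% and 4.35%, against 7.54% and 7.13% of all genes). The 3 genes with the smallest p were all higher. Rragc, which encodes a GTPase that recruits mTORC1 and TFEB to the lysosome, had 54.96, 50.6 and 55.2 FPKM with vehicle and 64.1, 65.2 and 68.5 FPKM with rmMETRNL, and every rmMETRNL value was well above the vehicle values (log2 fold change 0.29, SE 0.05, adjusted p = 0.173 in limma and 0.0411 in voom). Fnip1 and Fnip2, whose products bind folliculin, the activator of RagC, had 39.7, 41.1 and 43.1 against 46.04, 49.7 and 52.7 FPKM and 48.5, 46.9 and 45.6 against 56.3, 51.2 and 59.4 FPKM, both without overlap (log2 fold changes 0.25 and 0.24).

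The V-ATPase genes outside the members (14 tested) had 7 positive and 7 negative log2 fold changes. Atp6v1d, a V1 stalk subunit gene, had 46.5, 48.1 and 48.7 against 49.9, 55.1 and 51.2 FPKM and Atp6ap2, an accessory subunit gene, 163, 177 and 174 against 178, 199 and 186 FPKM, both wholly higher with rmMETRNL. Tcirg1, which encodes the a3 subunit of V0, had 194, 176 and 174 against 174, 159 and 155 FPKM, with 2 of 3 rmMETRNL values below all vehicle values. Over all V1 genes tested, members and others, 6 of 8 had a positive log2 fold change (median 0.09), with 3 wholly higher and 0 wholly lower (37.5% and 0%). Over the V0 genes 4 of 8 had a positive one (median -0.06), with 0 wholly higher and 1 wholly lower (0% and 12.5%). Of all genes, 10.9% were wholly higher and 10.6% wholly lower. This grouping of the subunits was made after the values were seen.

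Among other lysosomal enzymes, the mannosidase gene Man2b2 was wholly lower with rmMETRNL at 29.3, 28.9 and 29.96 against 25.5, 26.4 and 26.9 FPKM (log2 fold change -0.16, SE 0.04). The other glycosidase list as a whole had 9 of 16 positive and a median of 0.02, against -0.10 for the member glycosidases, and that median was -0.02 without rmMETRNL library 3. In the list of lipid enzymes, Plbd2 and Plbd1, both phospholipase B-like genes, were wholly lower (log2 fold changes -0.16 and -0.16) and Pla2g15, the lysosomal phospholipase A2 gene, wholly higher (0.18). The 1 tested cathepsin gene outside the members, Ctso, had a log2 fold change of 0.08 with overlap.

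Other membrane protein genes (23 tested, median -0.0024) held values in both directions. Laptm5, a lysosomal membrane gene of blood cells, had 162, 136 and 146 FPKM with vehicle and 122, 111 and 126 FPKM with rmMETRNL, wholly lower (log2 fold change -0.30, SE 0.08, adjusted p = 0.238 in limma and 0.0523 in voom). Slc11a1, the metal transporter NRAMP1 of phagosomes, had 244, 229 and 234 against 219, 208 and 209 FPKM, also wholly lower. Ostm1, the partner of the chloride transporter CLC-7, was wholly higher at 12.4, 12.3 and 13.5 against 14.4, 15.0 and 15.7 FPKM.

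Genes that tag and sort enzymes to the lysosome (22 tested) had 7 wholly lower and 2 wholly higher (31.8% and 9.09%, against 10.6% and 10.9% of all genes). Their median was -0.01, with 0.0078 on the TPM scale, 0.0023 with quantile normalization and -0.04 without vehicle library 1 or without rmMETRNL library 1. Nagpa, the gene of the enzyme that uncovers the mannose 6-phosphate tag, had 17.1, 16.5 and 16.6 against 15.7, 14.5 and 13.2 FPKM. Ap1m1 and Gnptg were also wholly lower (log2 fold changes -0.29 and -0.17). Gnptg shares 49.5% of its exon bases with other genes, mainly Unkl on the other strand. Inhibitors of cathepsins had 5 of 6 tested members negative, with a median of -0.15 that was -0.08 without rmMETRNL library 3. Cstb, the abundant cytosolic inhibitor cystatin B, had 1293, 1359 and 1347 FPKM with vehicle and 1266, 1251 and 1129 FPKM with rmMETRNL, wholly lower with library 3 the lowest, and Cst7 had 8.77, 10.8 and 9.25 against 8.94, 6.79 and 7.80 FPKM with overlap. Serpinb6a was wholly lower (log2 fold change -0.16), with 29.3% of its exon bases shared, mainly with Nqo2 on the other strand.

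**Figure D5:**
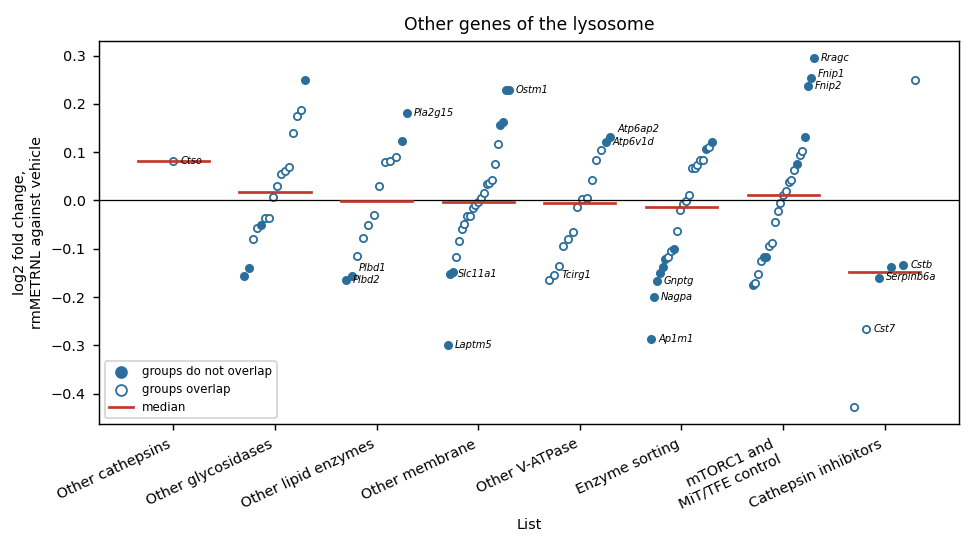
Log2 fold change (rmMETRNL against vehicle, on log2(FPKM + 1)) of the 117 tested lysosome genes outside the members, by list, with filled points where the groups do not overlap, a red line at each list's median and names for the 3 genes of smallest p in the lists other than glycosidases. Rragc, Fnip1 and Fnip2 lie highest in the list of mTORC1 and MiT/TFE control, and the inhibitors of cathepsins have the lowest median, -0.15.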

How the data were processed

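RNA-seq of 6 samples was analysed, 3 per group. The authors deposited 1 table of FPKM values per gene and library with gene lengths, which were used as given. Builds GRCm38 and mm10 appear in the submitters' processing notes, while the sources used here give no aligner, counter, annotation release or strand setting. Multiplied by gene length, 100% of the deposited FPKM values fell on whole reads (tolerance 0.05 reads), taken as recovered reads. A limma fit (3.58.1, R 4.3.3) with a mean-variance trend was made on log2(FPKM + 1) for the 9867 genes averaging 1 FPKM or more. Its two-sided p-values were adjusted over all of them by Benjamini-Hochberg, with a threshold of 0.05. Fold changes on this scale understate the change of low genes. Limma was tested on simulated data first.

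The members and lists were chosen with earlier results of these data known, so lists get counts and medians and no test. Any member could be named. Full statistics were reserved for members with an unadjusted p under 0.05 and the 4 of smallest p in each role. Up to 3 genes of smallest p per other lysosome list and the 2 most abundant per marker list could be named. Positions are as in the table, and those of 49 of 50 members equal GENCODE M21 (GRCm38). Overlap with other genes, on either strand, exceeds 10% of exon bases in 8 members, and 3 have over 10% of their 31-base words elsewhere. Alternatives were another pseudocount, other filters, 3 other scalings, voom on the recovered reads, the replicate number as a block and leaving out each library. Some genes are not reported here.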

Additional observations from a re-analysis of the deposited data

How the results depend on the processing

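There were 14 alternatives, and 13 for Manba, Ids, Sgsh and Tfeb, which a minimum of 5 FPKM leaves out. Of 29 members with full statistics, 26 kept the sign of their log2 fold change in those run for them. The 29 were picked by smallest p in the same libraries that the alternatives reuse, so a kept sign is no independent support. Of these alternatives the replicate block cannot move a log2 fold change in this balanced design. Median-of-ratios scaling left the counts and medians of members and of all genes as they were. A sign kept under either is therefore no separate check. Gaa alone of the 29 members passed the threshold in any alternative, by voom (log2 fold change -0.38, adjusted p = 0.0136). Its adjusted p ranged from 0.0136 to 0.392 over the alternatives. Sign changes were seen in members near 0. The log2 fold change of Sgsh was 0.0122 on the TPM scale, 0.0185 with quantile normalization and -0.0775 to 0.0531 with 1 library left out. That of Asah1 was -0.0011 to 0.0684 with 1 library left out, and that of Tfe3 was 0.0021 on the TPM scale and -0.0440 to 0.0363 with 1 library left out. Limma called 0 of all genes, and 5 with no filter, 1 on the TPM scale and 61 by voom, of which 1 was a member. The members' median of -0.0167 was 0.0036 on the TPM scale, and -0.0410 to -0.0049 with 1 library left out. On that scale 23 of 49 members were negative (46.9%, and 46.3% of all genes) where 28 (57.1%, and 51.6%) were before, and without rmMETRNL library 2 34 were (69.4%, and 51.7%). On the TPM scale 9 in place of 14 lay wholly lower. Those wholly higher numbered 7 to 10 with 1 library left out, where the share of all genes was 14.6% to 17.0%. The medians by role with 1 library left out were -0.0186 to 0.0399 for cathepsins, -0.0043 to 0.0532 for lipid hydrolases and 0.0131 to 0.0662 for the V-ATPase. With a minimum of 5 FPKM, which leaves fewer genes, the sulfatase median was -0.115, that of the transcription factors -0.0167 and that of the other lysosome genes -0.0188. That last median was 0.0134 on the TPM scale, 0.0042 with quantile normalization, -0.0167 by voom and -0.0122 to 0.0045 with 1 library left out. Except for the smaller gene sets, the cause of these shifts was not tested.

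The replicate numbers did not pair the samples: correlations of the deviations of same-numbered libraries were -0.0212, 0.0074 and -0.0454. With the replicate number as a block 0 members and 0 of all genes were called, and the adjusted p of Gaa was 0.277. Depth limits Arsb, Sgsh, Ids, Tfeb, Smpd1 and Manba, the members with the fewest reads. With 3 samples a group and labels that leave their origin unstated, differences smaller than about the intervals given cannot be resolved.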
